A study of Homo sapiens with 8 samples.

Results

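The genes described are the 49 collagens and lysyl oxidases that had a probe on the array, 44 collagen chains and 5 lysyl oxidases, of 43317 genes in all. They were chosen by name alone, as every gene whose symbol is COL, a number, A and a number, together with LOX and LOXL1 to LOXL4. The data are 8 Agilent arrays with 2 colours, all on 1 slide, each of which set Cy3-labelled RNA of mock cells against Cy5-labelled RNA of transfected cells of the same line. FaDu, a hypopharyngeal squamous cell carcinoma line, received miR-99a-5p or miR-99a-3p, PC3, a prostate cancer line, received miR-99a-3p, its relative miR-100-3p, or either strand of miR-150 (miR-150-5p, miR-150-3p), and PANC-1, a pancreatic cancer line, received either of 2 siRNAs against the transcription factor gene FOXQ1 (si-FOXQ1-1 and si-FOXQ1-2). All transfections used Lipofectamine RNAiMAX, and the labels describe the mock cells as not transfected. No array with a control small RNA was analysed here and no dyes were swapped, so the sequence of the RNA, the act of transfection and the dye cannot be told apart on a single array. With 1 array per condition, no ratio between transfected and mock cells has a test, and "higher" or "lower" describes 1 pair of RNAs.

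Collagens are triple-helical proteins built from 3 chains. Fibrillar collagens form the cables of the stroma, collagen IV forms the sheet of the basement membrane, collagen VII anchors that sheet to the stroma, and fibril-associated collagens decorate the surface of fibrils. In the endoplasmic reticulum the chains are hydroxylated, folded by chaperones and exported, and outside the cell their ends are trimmed by proteinases before lysyl oxidases, copper-dependent enzymes, oxidise lysines so that neighbouring molecules become cross-linked. Most collagen of a carcinoma is made by fibroblasts, but carcinoma cells make some chains themselves, those of the basement membrane above all.

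The transfected strands are printed because arrays of closely related strands gave different counts of these genes. The mature sequences below are from RefSeq (GRCh38.p14), 5′ to 3′, with the seed, bases 2 to 8, in capitals. The strands of miR-99a lie at chr21:16539101-16539122 and chr21:16539138-16539159 (plus strand) and miR-100-3p at chr11:122152240-122152261 (minus strand).
miR-99a-5p: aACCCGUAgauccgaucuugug
miR-99a-3p: cAAGCUCGcuucuaugggucug
miR-100-3p: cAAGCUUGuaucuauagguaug
The first and the second come from the same hairpin and share no seed. The second and the third have the same length of 22 bases and differ at 5 of them, of which 1, C7U, lies in the seed (position counted from 1 at the 5′ end, the base of miR-99a-3p first). The strands of miR-150 are given by name only.

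Of the 49 genes, 32 were measured in both channels of at least 1 array and 17 on all 8, where measured means that more than 0.5 of the probe's spots were well above background. Another 4 (COL8A2, COL9A1, COL20A1 and COL28A1) were above background in 1 channel only, and 13 were not well above background in either channel of any array. Among those 13 were COL1A2 and COL3A1, which with COL1A1 make up the bulk of stromal collagen, and COL4A3, COL5A3, COL11A1 and COL15A1. COL1A2, the partner of COL1A1 in the collagen I heterotrimer, was at no more than 10.2 signal units in any mock channel and 10.9 in any transfected one, over 9 or 10 spots on each array. Collagen I was therefore seen through its alpha 1 chain only.

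miR-99a-3p was the transfection with the largest number of collagens and lysyl oxidases at least 2-fold higher than mock, in both lines that received it. In PC3, 10 of the 27 measured were at least 2-fold higher and 0 were at least 2-fold lower, beside 4.18% of all measured genes higher and 3.99% lower. Their median log2 ratio was 0.86 where that of all genes was 0.07, and 23 of 27 lay above 0. In FaDu, 8 of 24 were at least 2-fold higher and 1 was lower, beside 7.68% and 5.48% of all genes, with a median log2 ratio of 0.50 against 0.03. That median was 0.24 with the mean over a gene's probes and 0.28 with 1 channel above background as the filter. With another background correction (normexp with loess) the total past 2-fold was 7 in place of 10 in PC3 and 7 in place of 9 in FaDu. The other strand of the same hairpin, miR-99a-5p in FaDu, had 0 of 22 in either direction, beside 0.894% of all genes higher and 0.165% lower.

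The other transfections had fewer of these genes past 2-fold, or had them on both sides. miR-100-3p in PC3 had 1 of 26 higher and 0 lower, beside 0.944% and 0.334% of all genes. With miR-150-3p in PC3, 5 of 28 were higher and 4 lower, beside 2.62% and 2.28%, and the median log2 ratio was -0.03. With normexp and loess the total for miR-150-3p was 5 in place of 9. With miR-150-5p it was 1 of 27 higher and 0 lower, beside 0.63% and 0.783%. In PANC-1, si-FOXQ1-1 had 2 of 22 higher and 2 lower, beside 0.883% and 0.366%, and si-FOXQ1-2 had 0 higher and 2 lower, beside 0.344% and 0.374%. With normexp and loess the total for si-FOXQ1-1 was 0 in place of 4. FOXQ1 itself was lower in both knockdowns, at a log2 ratio of -2.16 and -2.12.

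**Figure D1:**
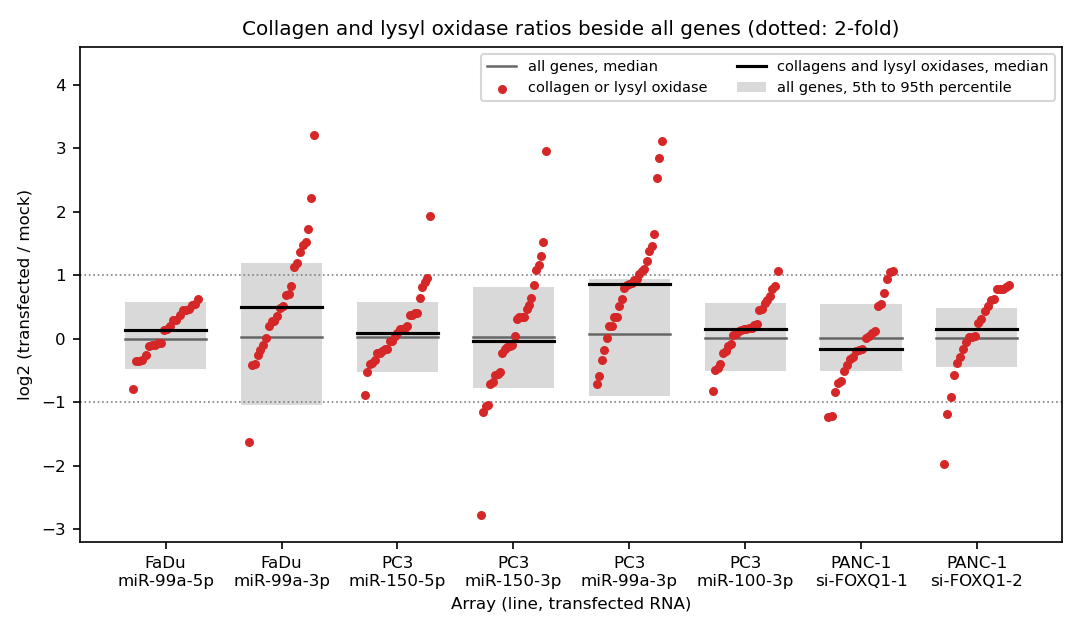
Log2 ratio of transfected over mock (y axis) on each of the 8 arrays (x axis). Red points are single collagens and lysyl oxidases measured in both channels, black lines their median, grey bars the 5th to 95th percentile of all measured genes and grey lines the median of all genes. On the PC3 miR-99a-3p array the median of the red points, 0.86, lies close to the 95th percentile of all genes, 0.94.

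Before single genes are described, the mock channels need a word, since every ratio rests on one. The mock channels of the 2 FaDu arrays differed by a median SD of 0.0605 on the log2 scale, those of the 2 PANC-1 arrays by 0.0527, and repeated spots of a probe within an array by 0.0516 to 0.0621. The figure of a pair is a median of SDs of 2 values, which runs lower than one over more spots, so these are not on a like scale. They do not show that a pair differed by no more than repeated spots. Over all genes the SD of the difference was 0.206 for the FaDu pair and 0.184 for the PANC-1 pair. Counting each such pair as 1 sample is therefore an assumption. The 4 PC3 mock channels formed 2 pairs of this kind, that of the miR-150 arrays (0.0477) and that of the miR-99a-3p and miR-100-3p arrays (0.0549), and across the pairs the SD was 0.105 to 0.106. They are called mock A and mock B. By this spread both miR-150 arrays were taken to share a control, and so were the miR-99a-3p and miR-100-3p arrays. The labels do not say which mock RNA an array received. Within these pairs 0.184% and 0.443% of genes still differed at least 2-fold, beside 0.964% to 1.08% across the pairs. Over 28 collagens and lysyl oxidases above background in all 4 channels, 3 differed at least 2-fold between mock A and mock B, beside 0.685% of 18981 genes, and 19 were higher in mock B. The 3 were LOXL4 (287 against 664 signal units, A against B), COL1A1 (184 against 385) and COL2A1 (72.9 against 24.0). Ratios of PC3 arrays are for this reason also given, for some of the genes, against the other mock RNA.

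**Figure D2:**
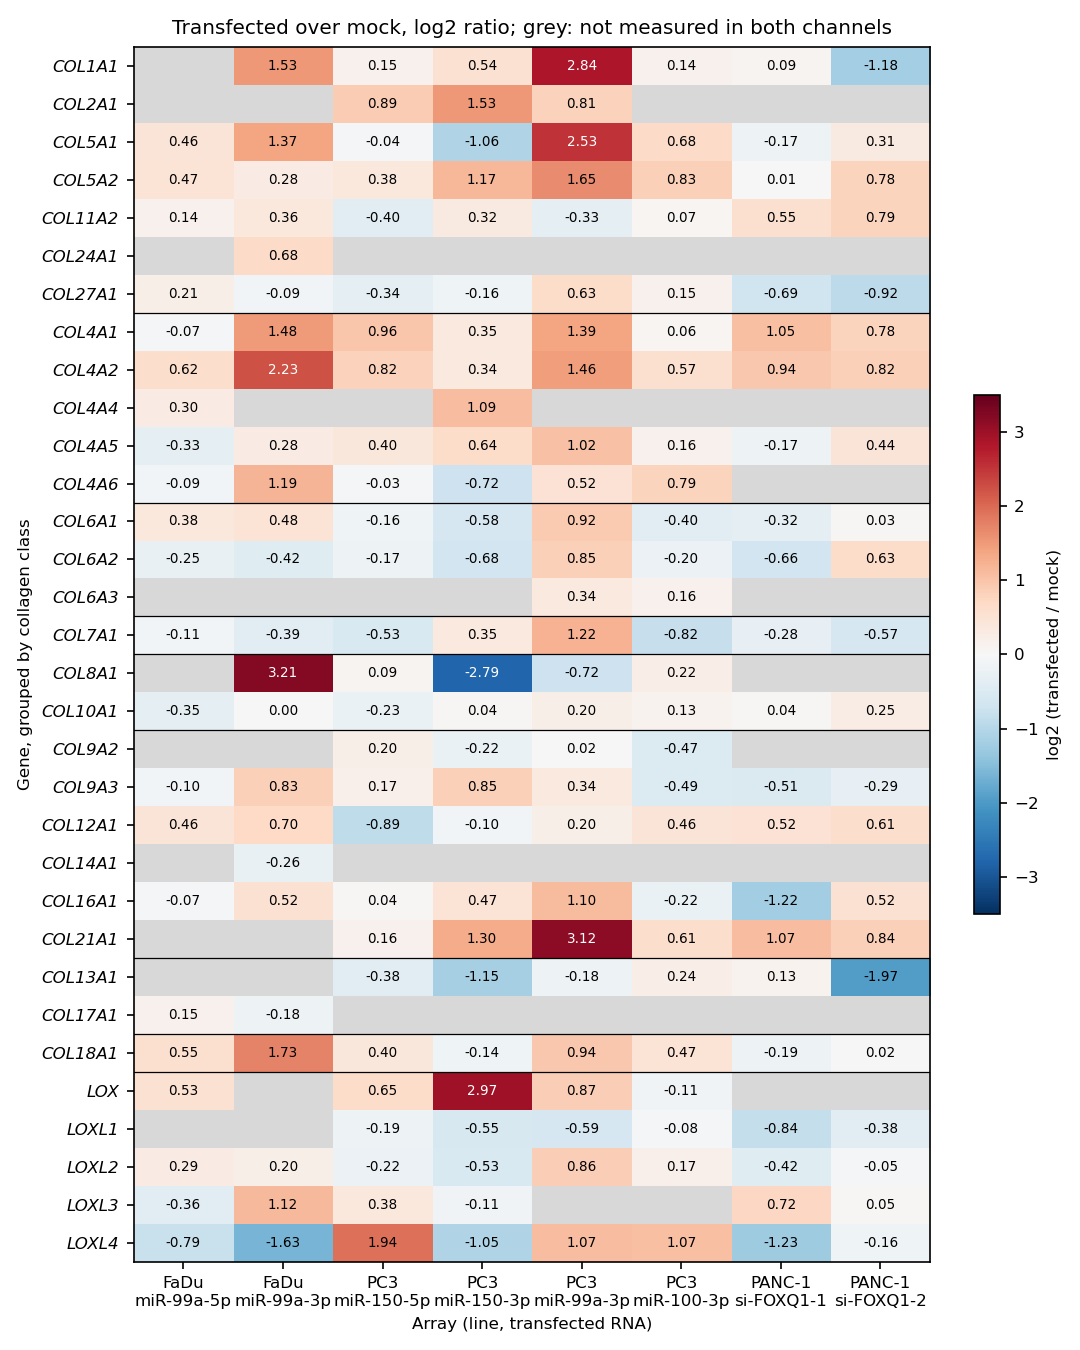
Log2 ratio of transfected over mock for the 32 genes measured in both channels of at least 1 array (rows, grouped by collagen class) on the 8 arrays (columns). Red is higher and blue lower in the transfected cells, and grey fields were not measured in both channels. The PC3 miR-99a-3p column holds 10 values of at least 1 and none of -1 or less.

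Fibrillar collagens were the class with the highest median on the PC3 miR-99a-3p array among classes with at least 3 chains measured, 1.23 over 6 chains. COL1A1, the alpha 1 chain of collagen I (probe at chr17:48261509-48261568, hg19), went from 588 signal units in mock to 4217 with miR-99a-3p in PC3, a log2 ratio of 2.84 ± 0.33 (the scanner's spot error). In FaDu it went from 65.6 to 189, a log2 ratio of 1.53 that became 0.80 with normexp and loess. With miR-99a-5p in FaDu it was not measured in both channels. On the PC3 arrays of miR-150-3p, miR-100-3p and miR-150-5p the ratio was 0.54, 0.14 and 0.15, and in PANC-1 it was 0.09 with si-FOXQ1-1 and -1.18 with si-FOXQ1-2. Both miR-99a-3p arrays thus stood above every other array that measured this gene, and the knockdowns of FOXQ1 did not share a direction past 2-fold. Against mock A, the PC3 ratios of COL1A1 were 4.01 with miR-99a-3p and 1.10 with miR-100-3p, the latter past 2-fold only against this mock RNA. Against mock B, those of miR-150-5p and miR-150-3p were -0.98 and -0.46, the opposite sign to their own mock.

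COL5A1 and COL5A2 encode the chains of collagen V, which sits inside collagen I fibrils and limits their width. For COL5A1 (chr9:137736327-137736386, hg19) the log2 ratio was 2.53 with miR-99a-3p in PC3 and 1.37 in FaDu, and -1.06 with miR-150-3p. It was 0.46 with miR-99a-5p, -0.04 with miR-150-5p and 0.68 with miR-100-3p, and -0.17 and 0.31 with the siRNAs si-FOXQ1-1 and si-FOXQ1-2. A second probe of COL5A1 gave 1.25 where the brightest gave 2.53, the same direction at less than the full size. COL5A2 (chr2:189897429-189897488, hg19) was 1.65 with miR-99a-3p in PC3, from 4513 to 14157 signal units, but only 0.28 in FaDu, where its mock signal was 56.5. It was 0.47 with miR-99a-5p, 0.38 with miR-150-5p and 0.83 with miR-100-3p, and 0.01 and 0.78 with the siRNAs, above 0 on all 8 arrays. With miR-150-3p in PC3, COL5A2 was 1.17, so these chains of collagen V lay on opposite sides of mock on that array. Against mock B the miR-150-3p values were 1.06 for COL5A2 and -1.79 for COL5A1. Against mock A the miR-100-3p values were 0.95 for COL5A2 and 1.35 for COL5A1, the latter past 2-fold only against this mock RNA.

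Among the other fibrillar chains, COL2A1, the cartilage collagen, was 1.53 with miR-150-3p, 0.89 with miR-150-5p and 0.81 with miR-99a-3p, all in PC3. Its value depended on the mock RNA, since mock A and mock B differed by 1.61 on the log2 scale for this gene. Against the other mock RNA it was 3.25, 2.38 and -0.84. COL11A2, COL24A1 and COL27A1 were under 2-fold wherever their brightest probe was measured, between -0.92 and 0.79. Another probe of COL11A2 was -1.10 with miR-99a-5p in FaDu, from 139 to 64.8 signal units, where the brightest gave 0.14.

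**Figure D3:**
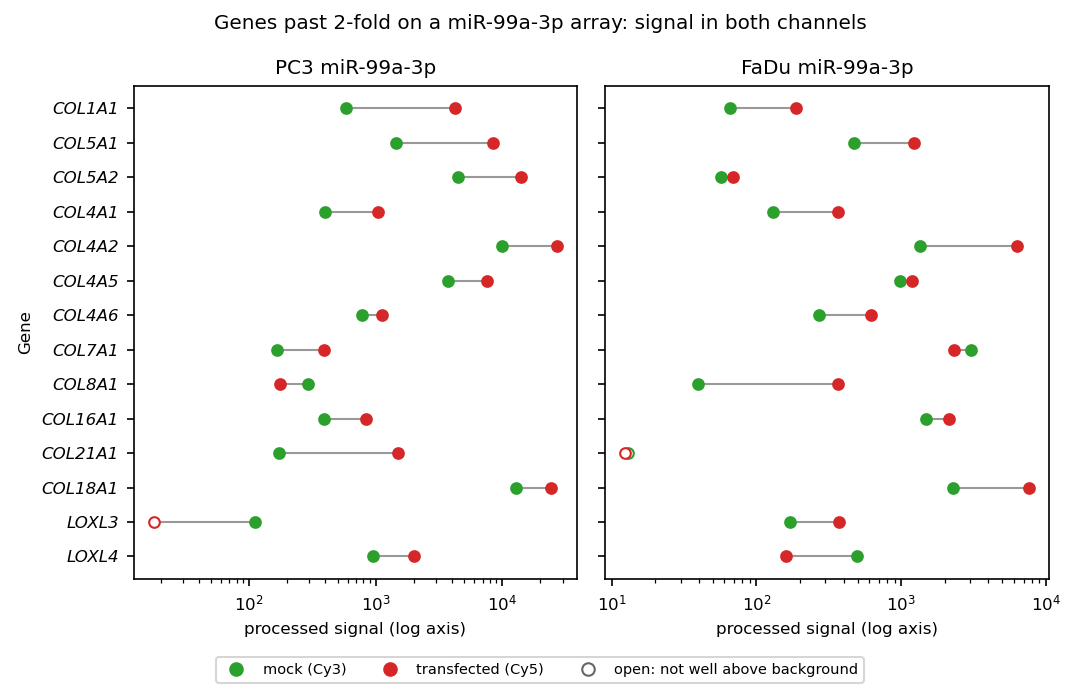
Processed signal (x axis, log scale) in mock cells (green, Cy3) and transfected cells (red, Cy5) for the genes at least 2-fold changed on a miR-99a-3p array, in PC3 (left) and FaDu (right). Open points were not well above background, and COL21A1 was below background in FaDu. COL1A1, COL5A1, COL4A1 and COL4A2 were at least 2-fold higher in both lines, while LOXL4 was higher in PC3 and lower in FaDu.

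COL4A1 and COL4A2 encode the 2 chains of the most widespread collagen IV and are transcribed in opposite directions from start sites with 126 bases between them. The stretch between the starts is printed because both genes beside it were higher with miR-99a-3p: chr13:110307158-110307283 (GRCh38.p14, plus strand, sequence of RefSeq, COL4A1 to the left and COL4A2 to the right).
COL4A1 to COL4A2: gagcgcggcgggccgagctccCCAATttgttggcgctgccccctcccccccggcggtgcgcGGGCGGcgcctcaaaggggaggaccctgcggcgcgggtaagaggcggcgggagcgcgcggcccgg
The capitals mark a CCAAT and a GGGCGG, which were searched on both strands and do not overlap. Its G and C content was 80.2%. Of 35116 windows of the same length just before a gene's start, 21.1% held a CCAAT and 34.6% a GGGCGG, and of the 51 windows that belonged to 36 of the 49 genes, 9 and 22 did. A match is a match of letters and not a site of binding.

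With miR-99a-3p, COL4A1 (probe at chr13:110802347-110802406, hg19) was 1.39 in PC3, from 399 to 1042 signal units, and 1.48 in FaDu, from 131 to 365. COL4A2 (chr13:111165261-111165320, hg19) was 1.46 in PC3, from 9899 to 27180, and 2.23 in FaDu, from 1342 to 6278. Both chains were thus at least 2-fold higher in both lines. COL4A2 was 0.62 with miR-99a-5p, 0.34, 0.57 and 0.82 with miR-150-3p, miR-100-3p and miR-150-5p, and 0.94 and 0.82 with si-FOXQ1-1 and si-FOXQ1-2. In the same order COL4A1 was -0.07, then 0.35, 0.06 and 0.96, then 1.05 and 0.78. Outside the miR-99a-3p arrays the highest value of COL4A1 and of COL4A2 was that of si-FOXQ1-1 in PANC-1. The mock signal of COL4A1 in PANC-1 was only 24.2 to 26.1, and with normexp and loess its si-FOXQ1-1 value was 0.41. COL4A2 was above 0 on every one of the 8 arrays, and COL4A1 on 7 of them.

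COL4A5 and COL4A6 are a second pair with opposite starts on chromosome X, with 379 or 1415 bases between them, depending on the start of COL4A6. They were 1.02 and 0.52 with miR-99a-3p in PC3 and 0.28 and 1.19 in FaDu, so a different chain of the pair passed 2-fold in each line. With normexp and loess, COL4A5 was 0.99 in PC3 and COL4A6 was 1.01 in FaDu. With miR-150-3p in PC3 they were 0.64 and -0.72. COL4A4 was measured in both channels with miR-99a-5p (0.30) and miR-150-3p (1.09), each time at dim signals, and COL4A3 on no array. In the 3 chains of collagen VI that were measured, which form beaded filaments around cells, no ratio of the brightest probe against the array's own mock reached 2-fold. The closest were COL6A1 and COL6A2 with miR-99a-3p in PC3, at 0.92 and 0.85, where COL6A1 went from 84788 to 160373 signal units. A second probe of COL6A2 was past 2-fold with miR-99a-3p in both lines and on opposite sides, at 1.36 in PC3 and -1.70 in FaDu, where the brightest gave 0.85 and -0.42. Against the other PC3 mock RNA, COL6A2 was 1.36 with miR-99a-3p and -1.16 with miR-150-3p, and COL6A3 was 1.19 with miR-99a-3p. COL7A1, the anchoring fibril chain, was 1.22 on that array (0.86 with normexp and loess) and between -0.82 and 0.35 on the other 7.

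COL8A1, a short-chain network collagen (chr3:99514765-99514824, hg19), had the widest span of all these genes. It was 3.21 with miR-99a-3p in FaDu, from 39.7 to 368 signal units, and -2.79 with miR-150-3p in PC3, from 300.1 to 43.5. With miR-99a-3p in PC3 it was -0.72, and with miR-150-5p and miR-100-3p it was 0.09 and 0.22. With miR-99a-5p and in PANC-1 it was not measured in both channels. Only FaDu thus had COL8A1 higher with miR-99a-3p, and against mock B the miR-150-3p value was -2.43. Both large values came from dim signals, and with normexp and loess they were 1.61 and -1.53. COL10A1 stayed between -0.35 and 0.25 on all 8 arrays.

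COL21A1, a fibril-associated collagen (chr6:55921642-55921701, hg19), was the highest of these genes on the PC3 miR-99a-3p array, at 3.12 ± 0.36 (spot error), from 173 to 1505 signal units. It was 1.30 with miR-150-3p, 0.61 with miR-100-3p and 0.16 with miR-150-5p, and 1.07 and 0.84 with the 2 siRNAs in PANC-1. Against the other PC3 mock RNA it was 3.64 with miR-99a-3p, 0.92 with miR-150-3p, 1.18 with miR-100-3p and -0.54 with miR-150-5p. With normexp and loess the values past 2-fold became 2.35 with miR-99a-3p, 0.83 with miR-150-3p and 0.75 with si-FOXQ1-1. In FaDu COL21A1 was not above background in either channel of either array, so nothing can be said of that line. COL16A1 was 1.10 with miR-99a-3p in PC3 and -1.22 with si-FOXQ1-1, but its second probe gave 0.31 and 0.33, so the direction with si-FOXQ1-1 rests on 1 probe. With normexp and loess the brightest probe gave 0.90 and -0.71. COL9A2, COL9A3, COL12A1 and COL14A1 stayed within 2-fold wherever measured, between -0.89 and 0.85.

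COL18A1, whose C-terminal fragment is endostatin (chr21:46933558-46933617, hg19), was 1.73 with miR-99a-3p in FaDu, from 2289 to 7602 signal units, and 0.94 in PC3. It was 0.55 with miR-99a-5p, -0.14, 0.47 and 0.40 with miR-150-3p, miR-100-3p and miR-150-5p, and -0.19 and 0.02 with the siRNAs. COL13A1, a collagen that spans the plasma membrane (chr10:71718811-71718870, hg19), was -1.97 with si-FOXQ1-2, from 412 to 105, and 0.13 with si-FOXQ1-1, from 454 to 496. Only si-FOXQ1-2 thus had COL13A1 past 2-fold, and the difference between the siRNAs was not tested. In PC3, COL13A1 was -1.15 with miR-150-3p, -0.38 with miR-150-5p, -0.18 with miR-99a-3p and 0.24 with miR-100-3p, and in FaDu it was not above background. COL17A1, the hemidesmosome collagen, was measured in FaDu only, at 0.15 and -0.18, while 4 of 5 squamous keratinocyte markers (KRT5, KRT6A, KRT14 and DSG3) were at least 2-fold lower with miR-99a-3p there.

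The lysyl oxidases did not share a direction. LOX (chr5:121405786-121405845, hg19) was 2.97 with miR-150-3p in PC3, from 83.1 to 650 signal units, with an SD of 0.12 between its 10 spots. Against mock B the value was also 2.97, and with normexp and loess it was 2.17. It was 0.65 with miR-150-5p, 0.87 with miR-99a-3p, -0.11 with miR-100-3p and 0.53 with miR-99a-5p in FaDu. With miR-99a-3p in FaDu, LOX was above background in mock cells (130 signal units) and not in transfected ones (27.5), which makes it at least 2.81-fold lower, the mock signal being set against the lowest signal well above background in the other channel. In PANC-1 it was above background in the mock channel only. LOX thus lay past 2-fold high on 1 array of PC3 and low on 1 array of FaDu.

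LOXL4 (chr10:100007746-100007805, hg19) was past 2-fold on 6 of the 8 arrays, more than any other gene of the set. It was higher with miR-150-5p (1.94), miR-99a-3p (1.07) and miR-100-3p (1.07) in PC3, and lower with miR-150-3p in PC3 (-1.05), with miR-99a-3p in FaDu (-1.63) and with si-FOXQ1-1 (-1.23). With miR-99a-5p it was -0.79 and with si-FOXQ1-2 -0.16. LOXL4 was also the gene with the largest excess of mock B over mock A, 1.21 on the log2 scale, and against the other mock RNA the miR-150-5p value fell under 2-fold, to 0.76, while the values of miR-99a-3p and miR-100-3p became 2.30 and 2.25 and that of miR-150-3p became -2.29. With normexp and loess the values for miR-150-3p, miR-99a-3p and miR-100-3p in PC3 and for si-FOXQ1-1 were -0.78, 0.93, 0.999 and -0.84, all under 2-fold. Those of miR-150-5p and of miR-99a-3p in FaDu were 1.66 and -1.07. With that correction LOXL4 no longer led the set, since COL5A1 was also past 2-fold with miR-99a-3p in PC3 (2.34) and FaDu (1.14).

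LOXL3 (chr2:74760363-74760422, hg19) was 1.12 with miR-99a-3p in FaDu, from 170 to 369 signal units, and 0.83 with normexp and loess. In PC3 its probes did not give the same picture with this RNA. The brightest went from 111 signal units in mock to 17.7, below background, while a second probe was above background in both channels, at 68.3 and 59.9, a log2 ratio of -0.19. No bound is therefore given for LOXL3 there. With miR-100-3p, where the second probe was below background in both channels, LOXL3 was at least 1.97-fold lower. On the remaining arrays it was -0.36 with miR-99a-5p, 0.38 with miR-150-5p, -0.11 with miR-150-3p, 0.72 with si-FOXQ1-1 and 0.05 with si-FOXQ1-2. LOXL1 was below 0 on every PC3 and PANC-1 array, between -0.84 and -0.08. LOXL2 was 0.86 with miR-99a-3p in PC3 and between -0.53 and 0.29 elsewhere.

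**Figure D4:**
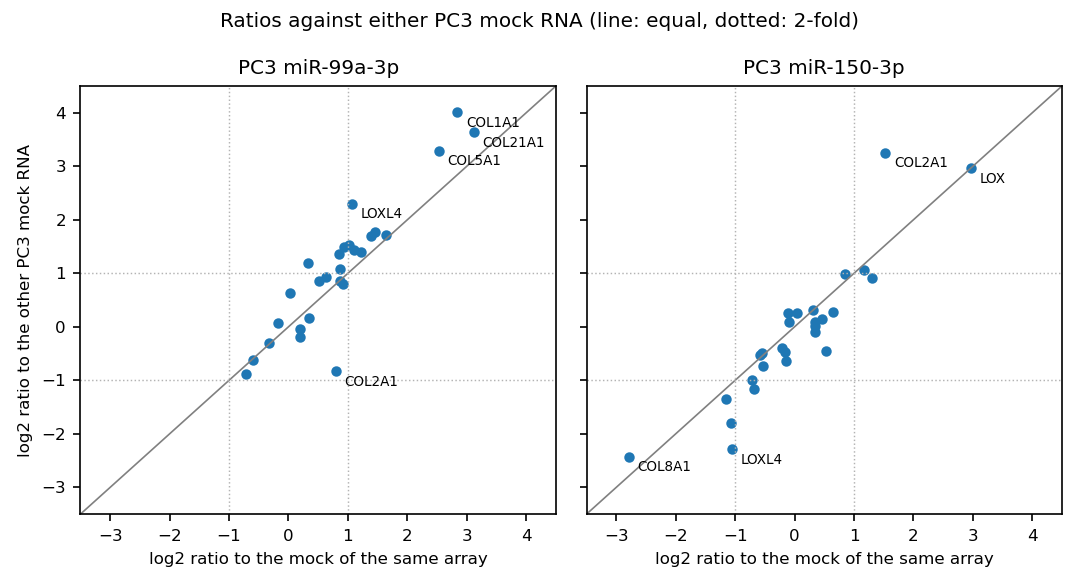
Log2 ratio of each gene against the mock RNA of its own array (x axis) and against the other PC3 mock RNA (y axis), for miR-99a-3p (left) and miR-150-3p (right). The line marks equal values and dotted lines 2-fold. With miR-99a-3p, COL2A1 changes sign (0.81 and -0.84), while COL1A1, COL21A1 and COL5A1 stay above 2.5 on both axes.

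Against mock A in place of its own control, the PC3 miR-99a-3p array had 14 of 27 genes at least 2-fold higher and 0 lower, beside 6.56% and 5.55% of all genes. Against mock B, miR-150-3p had 3 of 27 higher and 5 lower, beside 2.65% and 2.35%. For miR-100-3p against mock A the count was 5 of 26 higher and 0 lower, beside 1.45% and 1.09%, where its own mock gave 1. For that array the count therefore depended on which mock RNA was used.

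Genes that build, fold, trim and bind collagen were counted in the same way, by lists. Of all measured genes on the PC3 miR-99a-3p array, 4.18% were at least 2-fold higher and 3.99% lower. In a list of 13 genes, 1 gene is already 7.69%, so a count of 1 says little about a list. On the PC3 miR-99a-3p array, 1 of 13 measured genes of prolyl and lysyl modification was at least 2-fold higher, PLOD2 (1.04), the lysyl hydroxylase of telopeptides. In folding and export it was 1 of 11, FKBP7 (1.24), a prolyl isomerase of the endoplasmic reticulum. Of 10 genes of propeptide processing and fibril assembly, 3 were higher: SPARC (1.37), a collagen-binding matricellular protein, TLL1 (1.39), a procollagen C-proteinase, and FURIN (1.14), a proprotein convertase. The collagen receptors had 1 of 5, MRC2 (1.08), an endocytic receptor for collagen, and the TGF-beta axis 2 of 10, TGFBI (1.42) and the inhibitory SMAD7 (1.01). None of these lists held a gene at least 2-fold lower on that array.

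On the FaDu miR-99a-3p array genes of the same lists lay past 2-fold on both sides, beside 7.68% of all genes higher and 5.48% lower. In folding and export, FKBP7 (1.71) and SEC23A (1.00) were higher, and SEC24D (-1.75), which like SEC23A is a coat subunit of the vesicles that leave the endoplasmic reticulum, and PPIB (-1.12), a prolyl isomerase, were lower, of 11 measured. PCOLCE2 (3.05), an enhancer of procollagen C-proteinase, and FBLN1 (1.31) were higher of 7 in processing and assembly, LEPREL2 (1.11), a prolyl 3-hydroxylase, was higher of 10 in modification, and 0 of 4 receptors passed 2-fold. In the TGF-beta axis, TGFBR2 (1.59) was higher and CTGF (-1.04) lower, of 6. FKBP7 was the gene of these lists that passed 2-fold with miR-99a-3p in both lines.

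With miR-150-3p in PC3, PLOD2 (1.06), SPARC (1.12), TLL1 (1.33) and TGFB2 (1.01) were at least 2-fold higher and 0 genes of the 5 lists lower. The shares of all genes there were 2.62% higher and 2.28% lower. On each of the other 5 arrays between 0 and 4 genes of the lists passed 2-fold. The 4 were on the miR-100-3p array of PC3 and all higher, beside 0.944% of all genes. They were 1 of 13 in modification, 1 of 10 in processing and assembly and 2 of 10 in the TGF-beta axis.

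Fibroblast markers bear on these genes, since fibroblasts are the usual source of fibrillar collagen. Of 6 (FAP, DCN, LUM, PDGFRA, PDGFRB and THY1), 0 were above background on both mock arrays of FaDu, 2 in PC3 (PDGFRA and PDGFRB) and 2 in PANC-1 (PDGFRB and THY1). Their summed mock signal was 39.0 to 93.3 in FaDu, 147 to 202 in PC3 and 319 to 330 in PANC-1. FAP, DCN and LUM were not above background in either channel of the PC3 or FaDu miR-99a-3p arrays, while PDGFRA was 1.52 with miR-99a-3p and 1.02 with miR-150-3p in PC3. The part of these markers in the ratios was not tested. All 5 epithelial markers were above background in each line and all 5 squamous markers in FaDu, against 0 on every mock array of PC3 or of PANC-1. Of 5 markers of the prostate lumen 4 were above background in PC3, all but KLK3, and of 4 of the exocrine pancreas only CEL was in PANC-1.

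Finally, the lines were compared in their mock cells, which asks what each line made of these genes before transfection. With the pairs averaged, PC3 was taken to have 2 mock RNAs and FaDu and PANC-1 to have 1 each. The spread of the latter lines is therefore assumed to be that of PC3 in the limma fit across 21496 genes, and nothing shows that mock A and mock B were separate cultures. The filter, above background on every mock array of at least 1 line, kept 35 of the 49, and a gene kept only through the line where it is high had to differ, so the counts describe and do not support a difference of the set. Between PC3 and FaDu, 27 of 35 passed an adjusted p of 0.05 and 2-fold (18 higher in PC3 and 9 in FaDu), beside 42% of all genes. Between PC3 and PANC-1 it was 20 (15 higher in PC3 and 5 in PANC-1), beside 32.9%, and between FaDu and PANC-1 it was 22 (13 and 9), beside 38.8%. With normexp, loess and Aquantile the first count was 17 in place of 27, and COL4A1, COL5A1, COL4A6 and COL21A1 were among those lost.

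**Figure D5:**
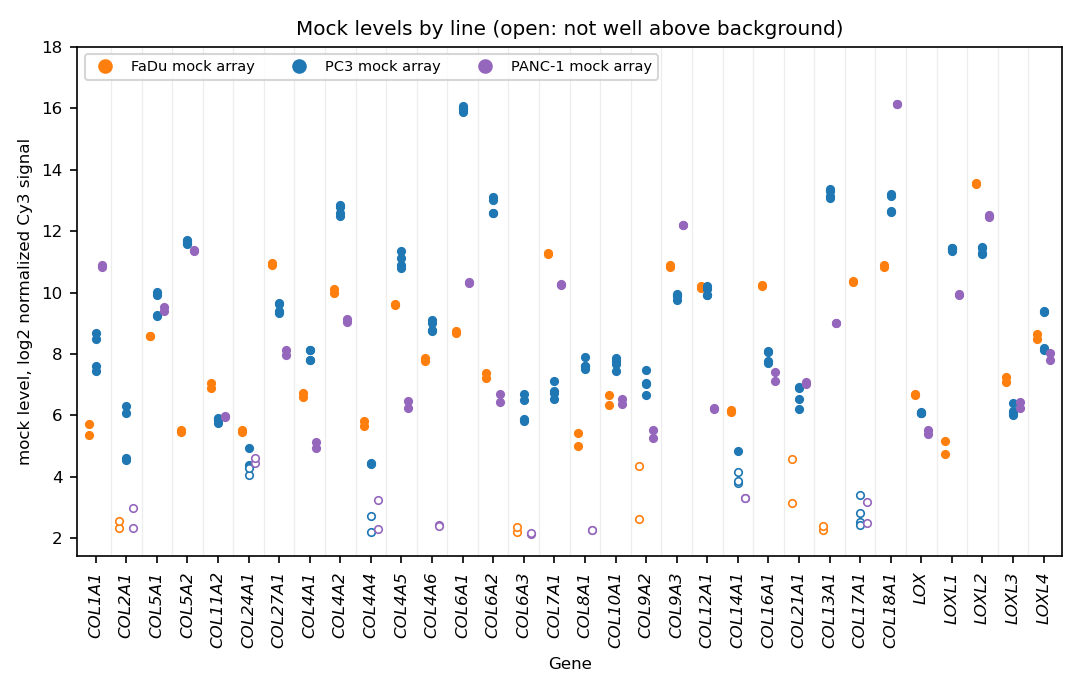
Mock level (y axis, log2 of the normalized Cy3 signal) of the 32 genes measured in both channels of an array (x axis) on the 2 FaDu, 4 PC3 and 2 PANC-1 mock arrays. Each point is 1 array and open points were not well above background. COL6A1, COL6A2 and COL13A1 lie highest in PC3, COL17A1 and COL16A1 in FaDu, and COL18A1 and COL1A1 in PANC-1.

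PC3 mock cells stood out for collagen VI and the transmembrane COL13A1. COL6A1 had a mean log2 signal of 15.99 in PC3, 8.72 in FaDu and 10.33 in PANC-1, a difference of 7.27 ± 0.10 (SE) to FaDu (limma adjusted p = 1.67e-05) and 5.66 ± 0.10 to PANC-1 (adjusted p = 1.83e-05). COL6A2 followed, with differences of 5.53 and 6.27, and COL6A3 was above background in PC3 only, at least 3.41-fold over FaDu and 3.62-fold over PANC-1. COL13A1 was at least 434-fold higher in PC3 than in FaDu, where it was not above background. The filter kept this gene only through the lines where it was bright, so no p is given for it. LOXL1 was 6.47 higher in PC3 than in FaDu on the log2 scale, and 1.48 higher than in PANC-1.

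Several chains of collagen IV were higher in PC3 as well. COL4A2 was higher than in FaDu by 2.63 ± 0.15 (limma adjusted p = 0.000149) and than in PANC-1 by 3.59, and COL4A5 by 1.44 and 4.71. COL4A6 was above background in PC3 and FaDu and not in PANC-1, at least 23.2-fold and at least 10.8-fold over it. COL4A4 had its highest mean log2 signal in FaDu, 5.74 against 3.44 in PC3 and 2.76 in PANC-1. Its difference between FaDu and PC3 did not pass the test. In PC3 it was above background in mock A and not in mock B, and in PANC-1 it was not above background. The genes that stood higher with miR-99a-3p thus included chains already high in PC3, such as COL4A2, and chains of low mock signal there, such as COL21A1.

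In FaDu mock cells, COL17A1, COL16A1, COL27A1 and LOXL2 were among the genes that stood above both other lines. COL27A1 had a mean log2 signal of 10.93 in FaDu, 9.51 in PC3 and 8.04 in PANC-1. COL17A1 was above background in FaDu alone, at least 84.2-fold over PC3 and 63.5-fold over PANC-1. COL7A1 was 4.47 ± 0.19 higher than in PC3 (limma adjusted p = 6.96e-05) and, at 1.00, did not reach 2-fold over PANC-1. LOXL2 was higher in FaDu than in PC3 by 2.19 and than in PANC-1 by 1.07, and COL16A1 by 2.32 and 2.97.

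In PANC-1 mock cells COL18A1, COL1A1 and COL9A3 stood above both other lines. COL9A3 had a mean log2 signal of 12.20 in PANC-1, 10.85 in FaDu and 9.88 in PC3. COL18A1 was 3.25 ± 0.22 higher than in PC3 (limma adjusted p = 0.000325) and 5.29 higher than in FaDu. COL1A1 was 2.80 ± 0.44 higher than in PC3 (adjusted p = 0.0043) and 5.33 higher than in FaDu, so the lines ranked PANC-1, PC3, FaDu for this chain. LOXL4 did not differ between any 2 lines beyond the test (limma adjusted p of 0.2 to 0.718), with differences of 0.22, 0.85 and 0.63 and an SE of 0.49 to 0.56 that carries the gap between the PC3 mock RNAs. A miss of the threshold does not show that the levels were alike.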

How the data were processed

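The genes, lists and alternatives were chosen with earlier results of these data known. Per the labels and file headers, the authors scanned 8 arrays of 1 slide and processed them with Agilent Feature Extraction 10.7.3.1 (spatial detrending, linear and lowess dye normalization, no scaling between arrays). Used here were the log10 ratio (Cy5 over Cy3) and both channels' processed signal intensities, as deposited. The values deposited for the whole series equalled the scanner ratios, the largest difference being 0. Here, log10 ratios were turned into log2, control spots and 81 to 178 outlier spots per array were left out, and repeated spots were averaged. Each gene was read from its brightest probe (70 of 58201 probes belong to the 49 genes, 16 with several). Between 44.5% and 49.2% of spots exceeded background in Cy3 and between 37.2% and 41.8% in Cy5, and 0 spots were saturated. The number of arrays limits the precision.

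Mock levels were scaled by Aquantile and fitted with limma 3.58.1 (R 4.3.3, lmFit, eBayes with trend, Benjamini-Hochberg over all genes tested), on pairs of arrays averaged after their spread was seen. The remaining work was done in Python 3.11.15 with numpy 2.4.6 and pandas 2.3.3. The limma step was tested on simulated data. The genes named are those past 2-fold on an array, those with a bound past 2-fold, and those above background in the mock cells of a line, with 12 at most given for every array. Probe coordinates are those of the array annotation (hg19) and sequences those of RefSeq (GRCh38.p14). Probes were not placed in exons here. Alternatives were other background corrections, scalings, probe rules, filters and thresholds, each array left out, and, added after seeing the data, the other PC3 mock RNA as control and the 8 mock arrays unaveraged.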

Additional observations from a re-analysis of the deposited data

Results flagged for a closer look

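LOXL4 lay past 2-fold on opposite sides of mock under miR-99a-3p in the lines that received it, with a log2 ratio of -1.63 in FaDu and 1.07 in PC3. For LOXL3 this held for the brightest probe only, which had a log2 ratio of 1.12 in FaDu and was at least 2.43-fold lower in PC3. A second probe of LOXL3, above background in both channels of the PC3 array, had a log2 ratio of -0.19 there, so the gene itself cannot be called lower. The difference between the lines was not tested in either case, since each line has 1 array with miR-99a-3p.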

How the results depend on the processing

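The 36 log2 ratios past 2-fold kept their sign under each alternative that could be computed (232 values, of which 37 moved by more than the spot error), and no called mock difference between lines turned its sign (1662 values over all differences, 43 of them no longer called and 28 newly called). Of the 37 moves, 19 of 36 values came with normexp and loess. Another 15 of 20 came with the other PC3 mock RNA and 3 of 32 with the mean over probes. The remaining settings moved 0 of 36 each. Among those, the values of the whole series and the filter on 1 channel could not move a ratio. No paired analysis was possible because there is only 1 array of each condition.

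For the number of genes past 2-fold, normexp with loess gave 5 with miR-150-3p (9 as reported), 0 with miR-100-3p (1) and 0 with si-FOXQ1-1 (4). With miR-99a-3p it gave 7 in PC3 (10) and 7 in FaDu (9). Centring on the array median gave 8 with miR-99a-3p in PC3, and the mean over probes gave 7 in FaDu. A threshold of 0.58 on the log2 ratio gave 2 with miR-99a-5p, 6 with miR-150-5p, 19 with miR-99a-3p in PC3, 6 with miR-100-3p, 9 with si-FOXQ1-1 and 10 with si-FOXQ1-2, and a threshold of 1.5 gave 5 with miR-99a-3p in FaDu, 3 with miR-150-3p, 4 with miR-99a-3p in PC3, 0 with miR-100-3p, 0 with si-FOXQ1-1 and 1 with si-FOXQ1-2. With 1 channel above background as the filter the count was 2 with miR-99a-5p, 2 with miR-150-5p and 3 with miR-100-3p. Against the other mock RNA it was 5 with miR-100-3p.

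The median log2 ratio moved under the filter on 1 channel to -0.083 with miR-99a-5p and 0.28 with miR-99a-3p in FaDu, under normexp with loess to 0.37 with miR-99a-3p in FaDu and -0.032 with si-FOXQ1-1, and under the mean over probes to 0.24 with miR-99a-3p in FaDu, 0.16 with miR-150-3p and 0.032 with si-FOXQ1-2. Against the other mock RNA it was -0.17 with miR-150-5p, 1.07 with miR-99a-3p in PC3 and 0.37 with miR-100-3p. The cause was not tested.

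Between mock lines, normexp gave 17 calls for PC3 against FaDu (27 as reported). Leaving out each array in turn gave 26 to 30 for PC3 against FaDu, 20 to 21 for PC3 against PANC-1 and 20 to 24 for FaDu against PANC-1. In these fits the other array of the pair still stood for the same mock RNA. No sample was thus removed, and the narrow ranges do not show that the counts hold without a sample. Unaveraged, the 8 mock arrays gave 28, 20 and 21. Over all genes, PC3 against FaDu, PC3 against PANC-1 and FaDu against PANC-1 had 9020, 7080 and 8335 calls, 5440, 3991 and 4898 with normexp, and 14035, 11760 and 12270 with no fold threshold. Dim signal limits these values too, since 17 of 49 genes could be measured on all 8 arrays.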
